A study of Homo sapiens with 36 samples.

Results

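PGD, PGLS, TALDO1, TKT, ME1 and IDH1 encode 6 enzymes of the pentose phosphate pathway or of cytosolic NADPH supply, and their RNA was measured in 2 human cell lines. They were found by symbol among the 60675 genes of the count table, each symbol matched 1 Ensembl gene identifier, and all 6 were expressed in all 36 libraries. After 24 h at the highest dose of the plant extract, 5 of the 6 genes were upregulated in SW1783, where 23.1% of all genes tested passed upwards, and 3 of the 6 in HT29, where 4.34% did. IDH1 had the largest fold change in SW1783 (1.56-fold) and ME1 in HT29 (1.66-fold). At that dose, with all libraries, neither gene passed the test in the other line.

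The pentose phosphate pathway runs beside glycolysis in the cytosol. Its oxidative branch turns glucose 6-phosphate into ribulose 5-phosphate and makes NADPH, and its non-oxidative branch exchanges carbons between sugar phosphates, so that ribose can be made for nucleotides or returned to glycolysis. NADPH is the electron donor for fatty acid and cholesterol synthesis and for the glutathione and thioredoxin systems that remove peroxides. In the oxidative branch PGLS hydrolyses 6-phosphogluconolactone and PGD then makes NADPH by oxidative decarboxylation of 6-phosphogluconate. TKT (transketolase) and TALDO1 (transaldolase) are the carbon-transfer enzymes of the non-oxidative branch. ME1 (malic enzyme) and IDH1 (isocitrate dehydrogenase) make NADPH in the cytosol from malate and isocitrate. Several of these genes are known targets of the transcription factor NRF2, which binds antioxidant response elements.

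SW1783 is an astrocytoma line that was kept in L-15 medium without added CO2, and HT29 is a colorectal adenocarcinoma line that was kept in DMEM with CO2. Each line had 6 groups of 3 libraries. In batch A the cells received vehicle or 10 µM wortmannin, a PI3K inhibitor that served as the positive control. In batch B they received vehicle or ACD, the water extract of Aconiti Lateralis Radix Preparata (*Aconitum carmichaeli* Debeaux, an aconite), at 20, 100 or 500 µg/mL, called low, medium and high dose. The labels give 0.1% DMSO for the vehicle, and all groups were harvested after 24 h. Each line is a single tumour-derived line, and line and culture medium cannot be told apart. Whether the 3 libraries of a group came from separate cultures was not stated, so p-values measure the spread between these libraries, which may be technical.

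Total counts ranged from 15941250 to 33866636 per library. VIM, an intermediate filament of mesenchymal and glial cells, was at 4076 to 4975 CPM (counts scaled to a common library total) in SW1783 and at most 0.133 CPM in HT29, whereas EPCAM, an epithelial adhesion molecule, was at 452 to 585 CPM in HT29 and at most 0.202 CPM in SW1783. The astrocyte markers GFAP and S100B were nearly absent from SW1783, with at most 6 and 5 counts in any library. CD44, counted with the mesenchymal markers, was present in both lines, at 1974 to 2857 CPM in SW1783 and 380 to 577 CPM in HT29. The leukocyte marker PTPRC was at 3.28 to 14.2 CPM in SW1783 and at most 0.126 CPM in HT29. The vehicles of batches A and B differed in 1 of 28731 genes tested in SW1783 (0.00348%) and in 0 of 27558 in HT29 (0%) by the Wald test of DESeq2, with 255 and 50 genes at an unadjusted p under 0.05, and none of the 6 enzymes passed. In SW1783, however, all batch B vehicle libraries of TKT and TALDO1 were above those of batch A. The log2 differences were 0.08 ± 0.03 (SE; unadjusted p = 0.00482) and 0.06 ± 0.05. Same-numbered vehicles of the 2 batches resembled each other more (chi-square per degree of freedom 1.46 to 1.64) than vehicles with different numbers (2.04 to 17.7). They were also closer than libraries within a group (1.68 to 3.77 in SW1783 and 2.43 to 71.5 in HT29). Whether same-numbered vehicles came from the same cultures was not stated. The test between batches did not pair vehicles by number, so the spread between numbers entered it and few differences could pass. Its counts therefore do not show that the batches were alike. HT29 high dose replicate 2 stood apart from its group (chi-square per degree of freedom 70.8 and 71.5 against replicates 1 and 3, which had 10.1 between them) and was the shallowest of all 36 libraries, so the HT29 high dose test results of the 6 enzymes are given with and without it. HT29 vehicle replicate 1 also stood apart, though less far. In batch B it had 15.1 and 17.3 against replicates 2 and 3, which had 4.04 between them. In batch A these values were 14.8, 16.98 and 3.78. HT29 low dose replicate 1 had 13.8 and 21.9, against 8.62 between replicates 2 and 3. Vehicle replicate 1 was the highest HT29 batch B vehicle library for TALDO1 and PGLS. Leaving it out changed no call on the 6 enzymes at any ACD dose in HT29. Mitochondrial ribosomal RNA took 5.76 to 6.06% of the counts in SW1783 at the high dose against 0.913 to 0.960% in its vehicle, and 11.3 to 12.5% in HT29 against 1.14 to 1.22%. When size factors were computed without the mitochondrially encoded genes, every call on the 6 enzymes in the 8 treatment comparisons held. In bulk RNA, fewer cells of a type and less RNA per cell cannot be told apart.

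In GRCh38 (GENCODE v44), PGD lies on chromosome 1 (10398592 to 10420511, plus strand), PGLS on chromosome 19 (17511636 to 17521288, plus strand) and TALDO1 on chromosome 11 (747415 to 765012, plus strand). TKT lies on chromosome 3 (53224712 to 53256052, minus strand), ME1 on chromosome 6 (83210402 to 83431051, minus strand) and IDH1 on chromosome 2 (208236229 to 208266074, minus strand). No other gene overlapped them on the same strand. PGLS, ME1 and IDH1 overlap genes on the opposite strand, and the largest of these, PGLS-DT, reached at most 4.52% of the PGLS count in any library. The strand setting of the counting was not stated, so opposite-strand reads cannot be set apart for these 3 genes.

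Promoter windows of RefSeq (GRCh38.p14, 250 bases before to 50 bases after the start site) were given for all 6 genes, with 2 windows for IDH1. The core of the antioxidant response element, TGACNNNGC, was searched on both strands because several of these genes are known NRF2 targets. It occurred in windows of 3 of the 6 genes, PGD, IDH1 and ME1, and in 13.3% of all 35116 windows. The windows of TKT, TALDO1 and PGLS held no match, which says only that these letters are not in the window. The cores TGATGNAAT (CEBP-ATF response element) and TCACNCCAC (sterol response element) occurred in no window of the 6 genes and in 0.991% and 1.13% of all windows. The stretches around the matches follow in the direction of the gene, with the match in capitals, and a match on the opposite strand appears as GCNNNGTCA.
PGD, match from base -201, opposite strand, chr1:10398814-10398931: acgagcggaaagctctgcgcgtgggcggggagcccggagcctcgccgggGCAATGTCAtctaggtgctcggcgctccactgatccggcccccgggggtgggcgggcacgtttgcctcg
IDH1, match from base -143, gene strand, chr2:208255146-208255274: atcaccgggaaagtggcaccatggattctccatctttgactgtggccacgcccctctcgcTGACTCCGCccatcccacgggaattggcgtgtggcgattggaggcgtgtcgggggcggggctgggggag
ME1, match from base -137, gene strand, chr6:83431120-83431248: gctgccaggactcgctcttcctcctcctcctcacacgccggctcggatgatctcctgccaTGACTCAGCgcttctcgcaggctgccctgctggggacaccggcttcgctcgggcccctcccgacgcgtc
ME1, match from base 12, opposite strand, chr6:83431002-83431100: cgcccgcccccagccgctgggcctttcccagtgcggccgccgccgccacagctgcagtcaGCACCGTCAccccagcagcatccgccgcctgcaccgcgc

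Levels are given as normalized counts, that is, counts divided by a size factor of DESeq2 computed over all 36 libraries, and per kilobase of transcript where genes are compared with each other. In batch B vehicle of SW1783, TKT had the highest level with 3674 ± 95.4 normalized counts per kilobase (mean ± SD, n = 3), followed by PGD with 1865 ± 21.6, TALDO1 with 1859 ± 58.3, PGLS with 828 ± 66.3, IDH1 with 444 ± 10.2 and ME1 with 97.9 ± 1.56. In batch B vehicle of HT29 the order was TALDO1 with 5010.1 ± 417, TKT with 3843 ± 113, PGD with 2008 ± 19.2, IDH1 with 1687 ± 60.1, PGLS with 669.9 ± 77.9 and ME1 with 548 ± 11.8. ME1, IDH1 and TALDO1 were lower in SW1783 than in HT29 before any treatment. The log2 difference (SW1783 minus HT29, ± SE) was -2.49 ± 0.07 for ME1, with an adjusted p that the software returned as 0, -1.93 ± 0.11 for IDH1 (adjusted p = 1.27e-62) and -1.43 ± 0.10 for TALDO1 (adjusted p = 1.06e-43). PGLS was higher in SW1783 by 0.31 ± 0.09 (adjusted p = 0.00104). PGD and TKT did not pass, with 95% intervals of -0.24 to 0.02 and -0.18 to 0.04. Of all genes tested between the vehicles, 32% were higher and 28.6% lower in SW1783, so a difference between the lines was common.

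**Figure D1:**
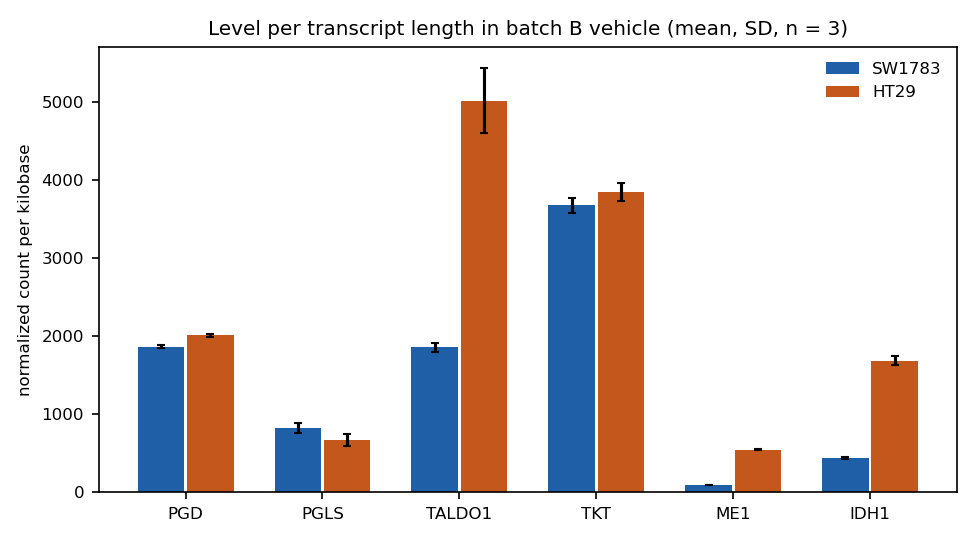
Bars show the mean level per kilobase of transcript (normalized counts) of the 6 enzymes in batch B vehicle of SW1783 and HT29, with the SD over 3 libraries as error bars. TKT and PGD stand at like heights in both lines, whereas TALDO1, IDH1 and ME1 are taller in HT29 (ME1 548 against 97.9).

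In SW1783 the high dose of ACD upregulated 5 of the 6 enzymes. These were PGD and PGLS of the oxidative branch, TKT and TALDO1 of the non-oxidative branch, and the cytosolic NADPH source IDH1. Of all genes tested, 23.1% passed upwards and 21.9% downwards, and 8.41% were upregulated DEGs, that is, past 1.5-fold as well as past an adjusted p of 0.05. The median log2 fold change of the 6 enzymes was 0.33, against -0.01 over all genes tested. IDH1, the only DEG among the 6, reached 1512, 1585 and 1622 normalized counts under the high dose, compared with 1008, 1022 and 1054 in vehicle. These libraries did not overlap, and the log2 fold change was 0.64 ± 0.06 (SE; adjusted p = 2.24e-25).

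In the oxidative branch, PGD reached 5304, 5065 and 5433 normalized counts in treated SW1783 against 4277, 4179.6 and 4235 in vehicle. All 3 treated libraries were above all vehicle libraries, and the log2 fold change was 0.34 ± 0.03 (adjusted p = 1.13e-22). PGLS stood at 1078, 1077 and 1209 against 761, 849 and 892 in vehicle, a log2 fold change of 0.45 ± 0.07 (adjusted p = 3.23e-09) without overlap. In the non-oxidative branch, TALDO1 stood at 2697, 2868 and 2641 against 2307, 2209.6 and 2172, a log2 fold change of 0.32 ± 0.05 (adjusted p = 8.28e-11). TKT, the most abundant of the 6 in this line, stood at 12933, 12714 and 13143 against 11041, 10704 and 11272, a log2 fold change of 0.26 ± 0.03 (adjusted p = 4e-16). Neither gene's libraries overlapped with vehicle. ME1 stood at 381, 345 and 340.9 against 332, 322 and 326, which also did not overlap, but its log2 fold change of 0.14 ± 0.10 did not pass (adjusted p = 0.258, 95% interval -0.05 to 0.34).

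In SW1783 PGLS passed at a lower dose than PGD, TKT, TALDO1 and IDH1, although no test compared the genes with each other. At the medium dose PGLS stood at 1044, 1039.9 and 1149.6 normalized counts, a log2 fold change of 0.38 ± 0.07 (adjusted p = 3.5e-06), and it was the only one of the 6 that passed, where 15.1% of all genes passed upwards. At the low dose PGLS stood at 981, 984 and 919, above all vehicle libraries, but its log2 fold change of 0.21 ± 0.07 did not pass (adjusted p = 0.0966). None of the 5 enzymes with an adjusted p passed at the low dose, where 3.57% of all genes passed in either direction, and ME1 was removed there by the filter on low counts. Between the high and the medium dose, IDH1 was higher by 0.56 ± 0.06 (adjusted p = 2.08e-19), PGD by 0.33 ± 0.03 (adjusted p = 6.58e-21), TALDO1 by 0.30 ± 0.05 (adjusted p = 2.3e-09) and TKT by 0.20 ± 0.03 (adjusted p = 3.59e-10) on the log2 scale, with 20.3% of all genes passing upwards. PGLS did not pass between these doses (0.08 ± 0.07, adjusted p = 0.442). Neither did ME1 (0.23 ± 0.10, adjusted p = 0.0608), although its high dose libraries were all above those of the medium dose. The doses share the same vehicle libraries.

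The mesenchymal and astrocytic markers as a list of 5 summed to 7456 to 7472 CPM in SW1783 at the high dose and to 9202 to 9476 CPM in vehicle. The totals behind CPM include mitochondrial ribosomal RNA, at 5.76 to 6.06% of the counts at the high dose and 0.913 to 0.960% in vehicle. The part of either shift in the results was not tested. The 5 epithelial markers summed to at most 0.405 CPM in any SW1783 group.

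**Figure D2:**
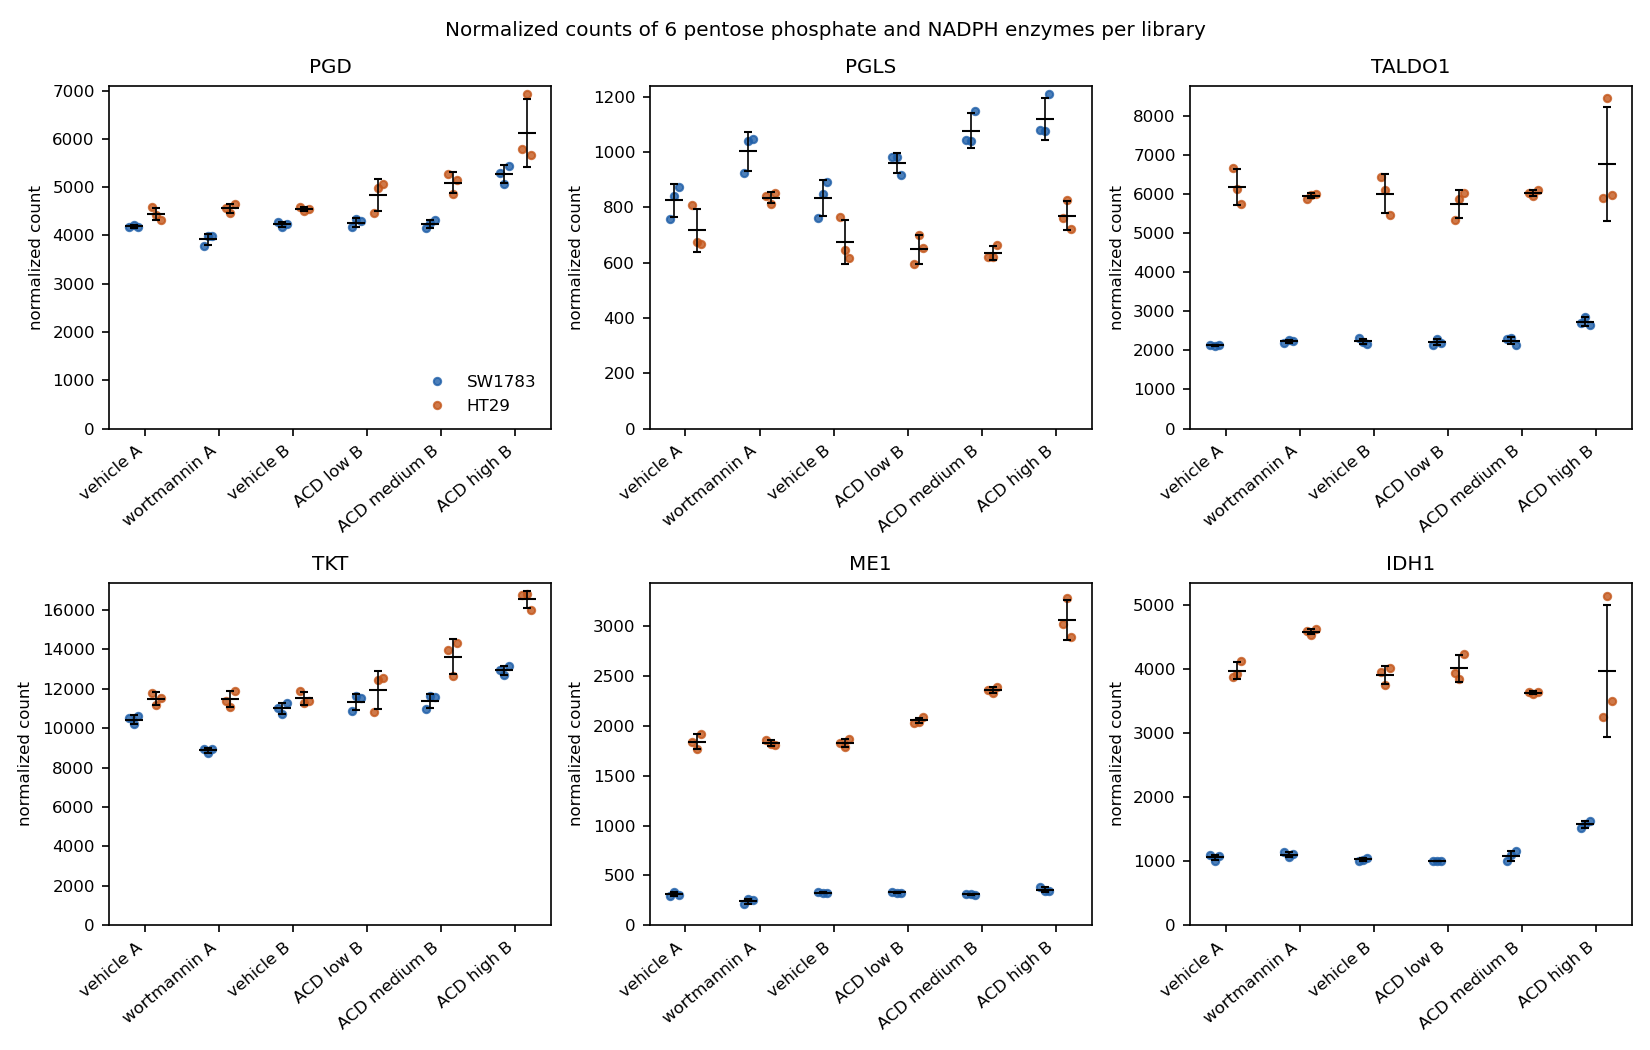
Each panel shows 1 enzyme, with normalized counts per library on the vertical axis from 0 and the 6 groups of each line on the horizontal axis (A and B are batches); points are libraries, black bars the mean and SD of 3. ME1, TALDO1 and IDH1 of HT29 lie far above those of SW1783, and 1 HT29 high dose library lies far above its group in IDH1 and TALDO1.

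In HT29 the high dose of ACD upregulated ME1, TKT and PGD, where 4.34% of all genes tested passed upwards and 1.35% were upregulated DEGs. The median log2 fold change of the 6 enzymes was 0.29 (0.21 without replicate 2), against 0.01 over all genes. ME1, the only DEG of the 6, stood at 3021, 3287 and 2896 normalized counts against 1826, 1794 and 1872 in vehicle. The libraries did not overlap, and the log2 fold change was 0.73 ± 0.06 (adjusted p = 2.58e-29), or 0.67 ± 0.05 (adjusted p = 2.6e-33) without replicate 2. TKT stood at 16753, 16832 and 16021 against 11904, 11287 and 11354, a log2 fold change of 0.51 ± 0.07 (adjusted p = 9.61e-10), or 0.49 ± 0.07 (adjusted p = 4.48e-10) without replicate 2. PGD stood at 5782, 6938 and 5668 against 4599, 4512 and 4551, a log2 fold change of 0.41 ± 0.09 (adjusted p = 0.000241), or 0.31 ± 0.06 (adjusted p = 1.41e-05) without replicate 2.

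The remaining 3 enzymes did not pass in HT29 at the high dose with all libraries. IDH1 stood at 3253, 5146 and 3499 normalized counts at the high dose against 3951, 3755 and 4025 in vehicle. Replicate 2 was above and the other 2 treated libraries were below every vehicle library, so the direction of IDH1 depended on 1 library. With all 3 libraries the log2 fold change was 0.01 ± 0.15 (adjusted p = 0.991, 95% interval -0.29 to 0.30), and without replicate 2 it was -0.23 ± 0.06 (adjusted p = 0.00148). TALDO1 showed the same spread, with 5909.8, 8454 and 5967 against 6452, 6104 and 5465, and a log2 fold change of 0.16 ± 0.14 (adjusted p = 0.591) that became -0.04 ± 0.07 (adjusted p = 0.757) without replicate 2. PGLS stood at 761, 827 and 723 against 764, 646 and 615, which overlapped, and its log2 fold change of 0.17 ± 0.11 did not pass (adjusted p = 0.385), nor did it without replicate 2 (0.12 ± 0.10, adjusted p = 0.482). Without replicate 2, 10.3% of all genes passed upwards and 7.93% downwards.

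**Figure D3:**
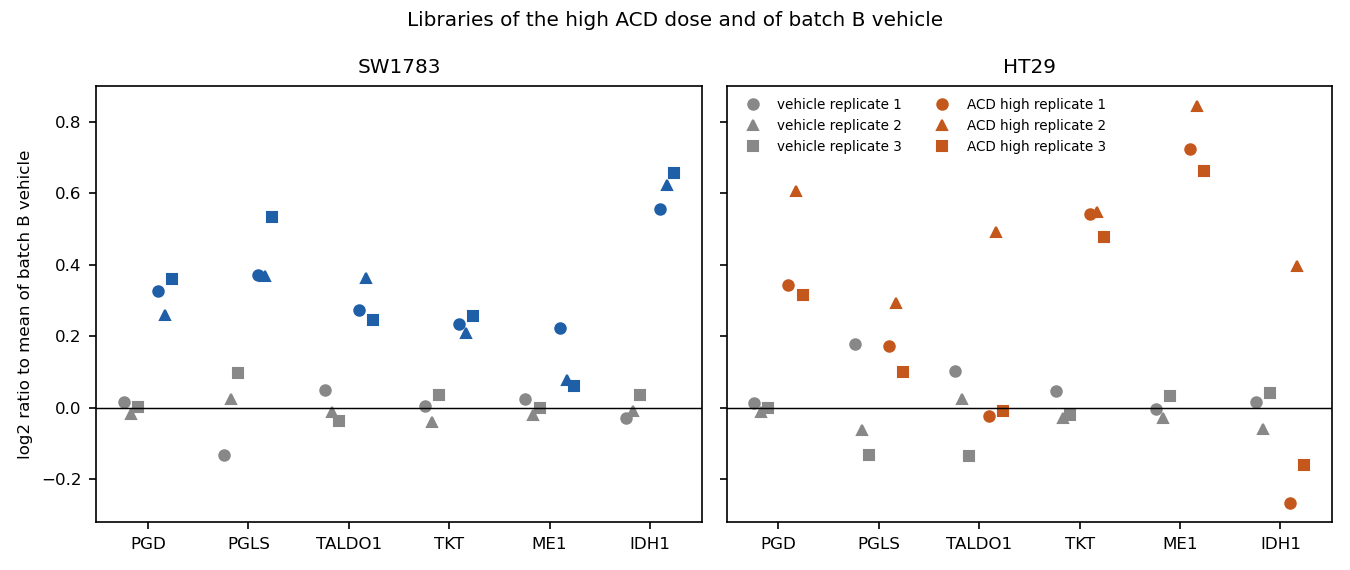
Points show, for each enzyme, the log2 ratio of every batch B vehicle library (grey) and every high dose library (coloured) to the mean of the vehicle, in SW1783 and in HT29, with the replicate number as the shape. In SW1783 all coloured points lie above 0, and in HT29 replicate 2 (triangle) lies above replicates 1 and 3 in all 6 genes.

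ME1 changed with dose in HT29. It stood at 2033, 2044 and 2089 normalized counts at the low dose and at 2361, 2328 and 2396 at the medium dose, and the libraries of vehicle and of each dose did not overlap with those of the next. The medium dose passed with a log2 fold change of 0.35 ± 0.06 (adjusted p = 4.11e-06), the only one of the 6 to do so, where 1.1% of all genes passed upwards. The low dose did not pass (0.14 ± 0.06, adjusted p = 0.52), and neither did any other enzyme there, where 0.546% of all genes passed. TKT stood at 13961, 12630.3 and 14301 at the medium dose, above all vehicle libraries, and its log2 fold change of 0.23 ± 0.07 did not pass (adjusted p = 0.0903) but passed without medium dose replicate 2 (0.28, adjusted p = 0.0391). From medium to high dose, ME1 was higher by 0.38 ± 0.06 (adjusted p = 1.99e-07) and TKT by 0.28 ± 0.07 (adjusted p = 0.013) on the log2 scale, where 0.971% of all genes passed upwards. Without high dose replicate 2 these differences were 0.32 ± 0.05 (adjusted p = 2.96e-07) and 0.26 ± 0.07 (adjusted p = 0.0129), where 1.45% passed upwards. The epithelial markers summed to 1245 to 1280 CPM in HT29 at the high dose and to 1372 to 1452 CPM in vehicle. CPM are scaled to totals that include mitochondrial ribosomal RNA. That RNA took 11.3 to 12.5% of the counts at the high dose and 1.14 to 1.22% in vehicle, which lowers the CPM of all other genes. The part of either shift in the results was not tested.

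**Figure D4:**
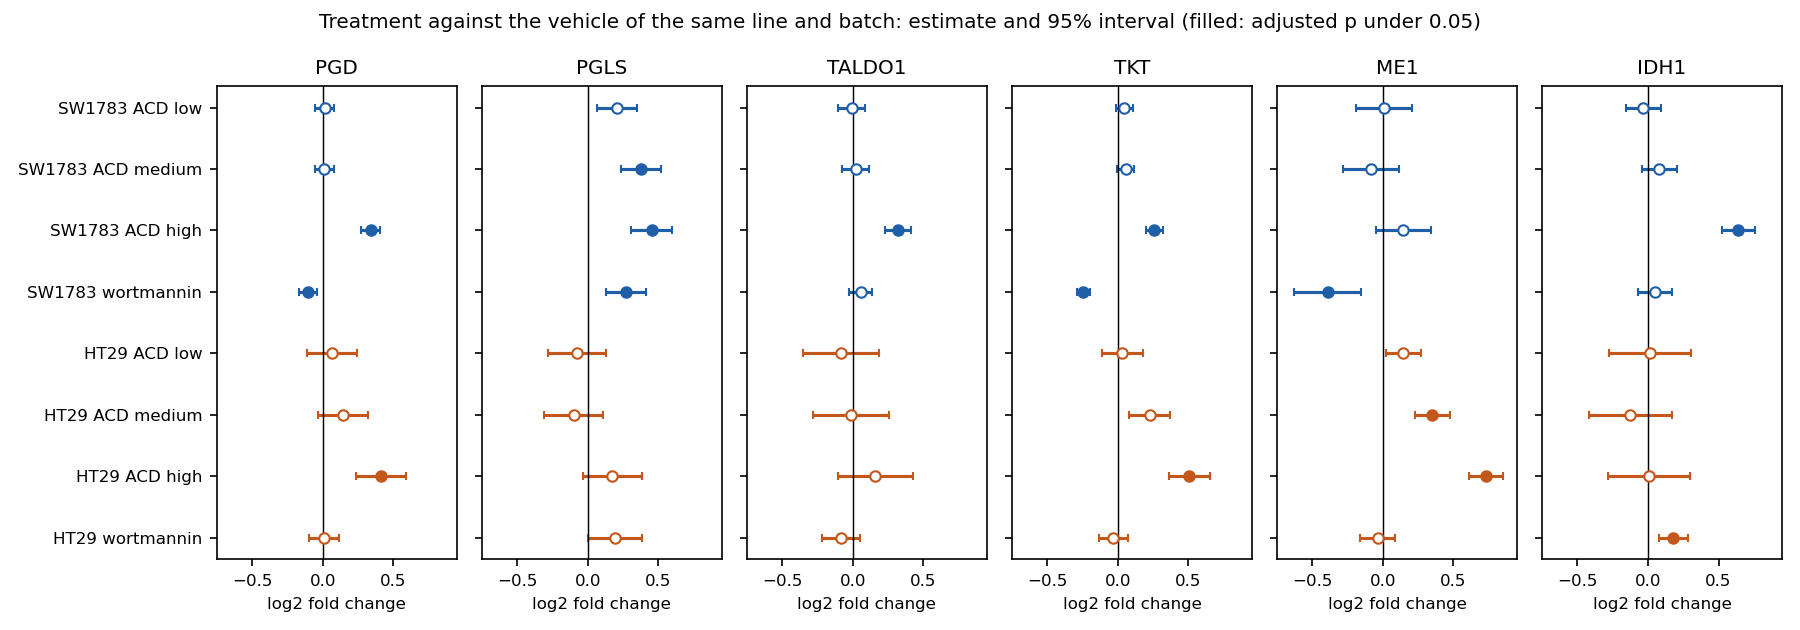
Each panel shows 1 enzyme, with the log2 fold change of the 8 treatment comparisons against the vehicle of the same line and batch on the horizontal axis; points are estimates, bars 95% intervals, and filled points passed an adjusted p of 0.05. IDH1 moved most in SW1783 at the high dose (0.64) and ME1 in HT29 at the high dose (0.73).

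Whether the 2 lines differed in response was tested directly as the interaction of line and treatment. At the high dose the log2 fold change of ME1 was lower in SW1783 than in HT29 by 0.63 (-0.63 ± 0.09, adjusted p = 1.82e-10), that of TKT was lower (-0.29 ± 0.08, adjusted p = 0.00113) and that of IDH1 was higher (0.59 ± 0.16, adjusted p = 0.00145). Without HT29 high dose replicate 2, IDH1 differed by 0.82 ± 0.08 (adjusted p = 5.33e-25), ME1 by -0.58 ± 0.09 (adjusted p = 3.27e-10) and TKT by -0.28 ± 0.08 (adjusted p = 0.00173), and TALDO1 then also passed (0.31 ± 0.08, adjusted p = 0.00109) where with all libraries it did not (0.12 ± 0.14, adjusted p = 0.615). PGD did not pass, with a 95% interval of -0.29 to 0.06, and PGLS did not pass, with -0.01 to 0.48. Neither passed without replicate 2, with -0.02 ± 0.06 (adjusted p = 0.905) and 0.29 ± 0.12 (adjusted p = 0.0614). Over all genes, 13.2% passed with a more positive and 15.7% with a more negative response in SW1783, or 15.8% and 18.7% without replicate 2.

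At the medium dose the interaction passed for ME1 (-0.46 ± 0.09, adjusted p = 4.49e-05) and PGLS (0.45 ± 0.12, adjusted p = 0.00508), where 4.26% of all genes passed upwards and 6.18% downwards. That of TKT did not pass with all libraries but passed without HT29 medium dose replicate 2 (-0.25 ± 0.07, adjusted p = 0.0154). At the low dose none of the 6 passed, where 0.929% of all genes did in either direction. The medium dose of PGLS in HT29 stood at 621, 619.98 and 665 normalized counts, within the range of its vehicle libraries (615 to 764).

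Wortmannin moved the enzymes in another pattern. In SW1783 it downregulated TKT, ME1 and PGD and upregulated PGLS, where 19.2% of all genes passed downwards and 13.3% upwards. TKT stood at 8949.7, 8718 and 8928 normalized counts against 10505, 10186 and 10617 in batch A vehicle, without overlap, and the log2 fold change was -0.24 ± 0.02 (adjusted p = 7.31e-22). ME1 stood at 207, 259.6 and 249 against 296, 335 and 299.7, a log2 fold change of -0.39 ± 0.12 (adjusted p = 0.00592). PGD stood at 3787, 3985 and 3989 against 4175, 4222 and 4165, a log2 fold change of -0.11 ± 0.03 (adjusted p = 0.00715). PGLS stood at 923, 1040.1 and 1049 against 759.9, 842 and 874, a log2 fold change of 0.27 ± 0.07 (adjusted p = 0.00096). The calls on ME1 and PGD were lost when either of 2 libraries was left out. Without wortmannin replicate 1 the adjusted p was 0.101 for ME1 (log2 fold change -0.30) and 0.117 for PGD (-0.08), and without vehicle replicate 2 it was 0.0857 (-0.33) and 0.059 (-0.10). None of the 4 changes reached 1.5-fold.

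In HT29 wortmannin upregulated IDH1, the only one of the 6 that passed with all libraries, where 8.06% of all genes passed upwards. IDH1 stood at 4599.8, 4536 and 4625 normalized counts against 3871, 3927 and 4131, without overlap, and the log2 fold change was 0.18 ± 0.05 (adjusted p = 0.00561). This call was lost without vehicle replicate 2 (adjusted p = 0.0659) and without wortmannin replicate 1, 2 or 3 (adjusted p = 0.0762, 0.0699 and 0.0852), with log2 fold changes of 0.17 to 0.18. PGLS did not pass with all libraries (0.19 ± 0.10, adjusted p = 0.157), although its wortmannin libraries were all above those of vehicle. It passed without vehicle replicate 1 (0.29 ± 0.09, adjusted p = 0.007). The interaction with wortmannin passed for TKT (-0.23 ± 0.05, adjusted p = 5.42e-05), ME1 (-0.38 ± 0.11, adjusted p = 0.00585) and PGD (-0.14 ± 0.05, adjusted p = 0.0469), all lower in SW1783, where 10% of all genes passed in that direction. PGD's call here was lost in 14 of 17 alternatives (adjusted p = 0.267 with edgeR) and ME1's in 3 of 17.

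Over the 6 groups of each line the high dose group had the highest mean of all in SW1783 for each enzyme. Its libraries were apart from those of the next group for IDH1, PGD, TALDO1, TKT and ME1, and overlapped with the medium dose for PGLS. In HT29 the high dose was highest and apart for ME1, TKT and PGD. For TALDO1 and PGLS of HT29 no neighbouring groups were apart in the order, and for IDH1 the wortmannin group was highest and apart from the low dose group that followed it.

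Of the other genes of pentose and ribose phosphate metabolism, a list of 11, none was a DEG in any of the 8 treatment comparisons. In SW1783 at the high dose 9 had an adjusted p, 1 passed upwards (RBKS, ribokinase, 0.48) and 3 passed downwards (DERA, which splits deoxyribose phosphate, -0.36; PGM2, a phosphopentomutase, -0.37; and PRPS1, which makes phosphoribosyl pyrophosphate, -0.36). The pathway genes RPIA, RPE and H6PD were not among those that passed. Over all genes, 23.1% passed upwards and 21.9% downwards, and the median log2 fold change was -0.05 for the list and -0.01 over all genes. In HT29 at the high dose none of 9 passed, with or without replicate 2. The interaction at the high dose passed for DERA (-0.46 ± 0.17), PGM2 (-0.53 ± 0.11), PRPS1 (-0.63 ± 0.12) and PRPS2 (-0.41 ± 0.15), all lower in SW1783, where 15.7% of all genes passed in that direction. Without HT29 high dose replicate 2 these were -0.24 ± 0.10 for DERA (adjusted p = 0.0393), -0.44 ± 0.09 for PGM2 (adjusted p = 8.44e-06) and -0.47 ± 0.07 for PRPS1 (adjusted p = 1.83e-10), and PRPS2 did not pass (-0.23 ± 0.10, adjusted p = 0.0631), where 18.7% of all genes passed in that direction.

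Among 13 other genes of NADPH supply, 6 of 12 tested passed upwards and 2 downwards in SW1783 at the high dose, with a median log2 fold change of 0.26, against 23.1%, 21.9% and -0.01 over all genes. The 4 DEGs were all upregulated, and most belong to mitochondrial folate metabolism. ALDH1L2, which oxidises formyltetrahydrofolate and makes NADPH in mitochondria, stood at 2114, 2072 and 2239 normalized counts against 425, 441 and 394 in vehicle (log2 fold change 2.37 ± 0.07). MTHFD2, a mitochondrial methylenetetrahydrofolate dehydrogenase, rose by 1.60 ± 0.04 and MTHFD1L, which releases formate from mitochondrial formyltetrahydrofolate, by 1.10 ± 0.06. NADK2, which makes NADP in mitochondria, rose by 0.65 ± 0.06. At the medium dose ALDH1L2 (1.75 ± 0.07), MTHFD2 (0.98 ± 0.04) and MTHFD1L (0.61 ± 0.06) were DEGs too. In HT29 at the high dose 4 of 13 passed upwards and 1 downwards, against 4.34% and 3.92% of all genes, and the same 5 genes passed without replicate 2, where 10.3% and 7.93% did. MTHFD2 was the only DEG, with 0.78 ± 0.12 (adjusted p = 1.83e-08), or 0.60 ± 0.06 without replicate 2, whose library stood at 6984 against 5019 and 5078. The others that passed were MTHFD1L (0.49, or 0.45 without replicate 2), ALDH1L1 (0.40 and 0.42), the mitochondrial malic enzyme ME2 (0.30 and 0.21) and, downwards, the mitochondrial isocitrate dehydrogenase IDH2 (-0.28 and -0.36). ALDH1L2 of HT29 was near the lower end of detection, at 6.31 to 15.5 normalized counts over the vehicle and high dose libraries. With wortmannin the only DEG of the list was ALDH1L1, a cytosolic relative of ALDH1L2, in HT29 (0.72 ± 0.15, adjusted p = 7.58e-05).

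Among the 9 NADPH-using enzymes reported here, 6 passed upwards and 0 downwards in SW1783 at the high dose, with a median log2 fold change of 0.33, against 23.1%, 21.9% and -0.01 over all genes. BLVRB, a biliverdin reductase, rose by 0.73 ± 0.08, TXNRD1, cytosolic thioredoxin reductase, by 0.63 ± 0.03 and the quinone reductase NQO1 by 0.62 ± 0.03. In HT29 at the high dose 3 passed upwards and 1 downwards (TXNRD2, mitochondrial thioredoxin reductase, -0.24, or -0.23 without replicate 2), against 4.34% and 3.92% of all genes, with a median of 0.07. The third that passed upwards beside TXNRD1 and NQO1 was the glutathione reductase GSR (0.29, or 0.27 without replicate 2). TXNRD1 stood at 12684, 12306 and 12840.3 against 7201, 7391 and 8019 in vehicle, a log2 fold change of 0.73 ± 0.06 (adjusted p = 1.86e-34), or 0.74 ± 0.06 (adjusted p = 2.39e-34) without replicate 2. NQO1 stood at 17610.4, 27462 and 17959.8 against 11911, 10644 and 11154, with replicate 2 far above the others. Its log2 fold change was 0.89 ± 0.15 (adjusted p = 4.68e-07), or 0.64 ± 0.06 (adjusted p = 2.39e-25) without replicate 2. TXNRD1 was the only DEG of the list at the medium dose in HT29 (0.65 ± 0.06, adjusted p = 3.06e-27).

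**Figure D5:**
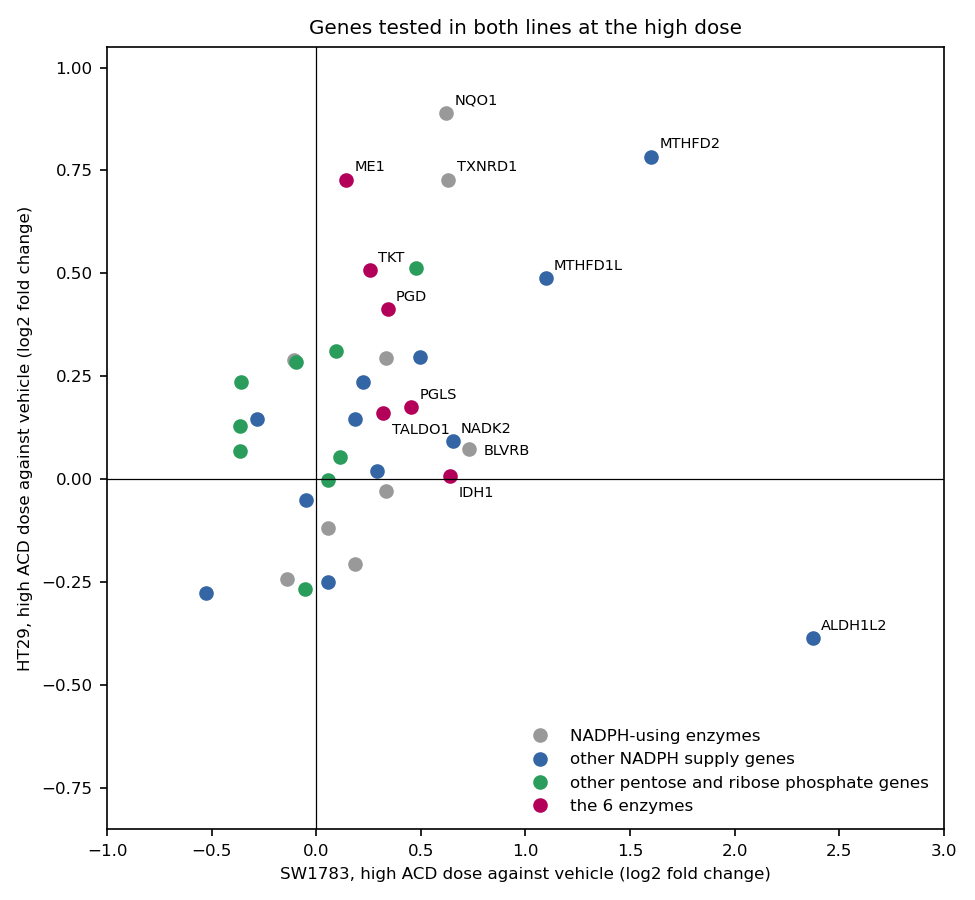
Each point is a gene tested in both lines at the high dose, with the log2 fold change in SW1783 on the horizontal axis and in HT29 on the vertical axis; colours mark the 6 enzymes and 3 lists of related genes. ALDH1L2 lies far to the right (2.37 in SW1783) but below 0 in HT29, where its level was at most 15.5 normalized counts, and ME1 and IDH1 lie apart from the diagonal on opposite sides.

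The genes whose log2 fold changes over the 8 treatment comparisons differed least from those of ME1, IDH1 and TKT were sought among 9663 genes that averaged at least 100 normalized counts in each line, by the root mean square difference. The comparisons share vehicle libraries. For ME1 these were SLC2A1, a glucose transporter (0.10), PIR, an iron-containing nuclear protein (0.12), and TKT (0.13), against a median of 0.36 over all genes. TKT had PIR (0.04), SLC2A1 (0.07) and PGD (0.08) closest, against a median of 0.28. IDH1 had OXR1 (0.05), RASA2 (0.06) and SLC15A4 (0.06) closest, against a median of 0.28, and shared none of its 3 with ME1 or TKT. The search used the HT29 high dose with replicate 2 and was not repeated without it. IDH1 stood at 0.01 in that comparison and at -0.23 without replicate 2, so its closest genes may depend on that library, which was not tested. PIR stood at 0.32 in SW1783 and 0.58 in HT29 at the high dose and at -0.28 with wortmannin in SW1783.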

How the data were processed

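RNA sequencing of 36 libraries from 2 cell lines was analysed, in 12 groups of 3 taken from the sample labels. The authors made directional mRNA libraries, sequenced both read ends on an MGI platform, trimmed adapters with Trim Galore, aligned them with STAR to GRCh38 and quantified genes with RSEM. The submitters' processing notes name FastQC 0.11.9, Trim Galore 0.6.5, STAR 2.7.3a and RSEM 1.3.3, the methods name other versions of Trim Galore and STAR, and the methods add hg19, an older build's name, to GRCh38. The strand setting of RSEM was not given in the sources used here. The deposited values are RSEM expected counts per gene, not normalized, of which 8.84% were not whole, and they were rounded. RSEM divides reads that fit several genes by a model. Of 60675 genes, 56558 had a symbol.

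The Wald test of DESeq2, which the study's methods name, was used for each contrast (DESeq2 1.42.0, R 4.3.3). It was run two-sided, with default filters and Benjamini-Hochberg adjustment over all genes of a contrast. The 12 batch B libraries of a line shared 1 fit, and so did the 6 of batch A. Differences between lines were tested as interactions over the libraries of the batch. A gene passed at an adjusted p under 0.05, and a DEG also exceeded 1.5-fold. A gene removed by DESeq2's filter has no adjusted p and was not counted. The 6 enzymes, the lists of related genes and the rule for naming genes were chosen with earlier results of these data known. That rule named the 6 enzymes, from each list the DEGs that averaged at least 100 normalized counts (at most 4 per list and contrast), and the 3 genes most alike in response to each of the 3 enzymes that moved most. Some other list genes are named after their values were seen. The list of NADPH-using enzymes is given without 1 gene that is not reported here, so its counts and medians cover the rest of the list. Levels per kilobase used the MANE Select transcript in place of the merged exons first planned, since merged exons join rare isoforms. The alternatives were edgeR 4.0.16 (quasi-likelihood), other size factors, a low-count filter, other sets of libraries, a replicate block and leaving out each library. The comparison of high and medium dose in HT29 without high dose replicate 2 was added after seeing the data. The scripts were tested on simulated data.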

Additional observations from a re-analysis of the deposited data

Results flagged for a closer look

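In 8 cases the response of an enzyme differed between the lines by the interaction test of DESeq2 (log2 fold change in SW1783 minus that in HT29). At the high dose these were ME1 (-0.63), TKT (-0.29) and IDH1 (0.59). At the medium dose these were ME1 (-0.46) and PGLS (0.45). With wortmannin these were ME1 (-0.38), TKT (-0.23) and PGD (-0.14). The IDH1 difference was 0.82 without HT29 high dose replicate 2. The wortmannin difference of ME1 was lost without SW1783 wortmannin replicate 1 (adjusted p = 0.0733) or SW1783 vehicle replicate 2 (adjusted p = 0.0618), and that of PGD was lost under most alternatives. Line and culture medium cannot be told apart.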

How the results depend on the processing

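Over all alternatives, 942 values of the 6 enzymes kept their side of the threshold. Of these, 31 had the opposite sign and no call on either side (such as TALDO1 in HT29 at the high dose, from 0.16 to -0.04 without replicate 2). Another 29 lost the call, 6 gained it with the same sign and 1 gained it with the opposite sign. The last was IDH1 in HT29 at the high dose. It stood at 0.01 and was not called with all libraries (adjusted p = 0.991), and stood at -0.23 without high dose replicate 2 (adjusted p = 0.00148). Over the libraries left out in turn it ranged from -0.23 to 0.13. The causes were not tested. The number of DEGs was 3547, 537, 9 and 393 in SW1783 (high, medium, low dose, wortmannin), 474, 135, 48 and 360 in HT29, and 2687, 503, 33 and 444 for the interactions. By construction more genes were counted without the fold threshold, namely 9016, 4157, 311 and 4717 in SW1783, 1263, 338, 93 and 2592 in HT29, and 5105, 1571, 115 and 2030 for the interactions. With edgeR the counts were 809 (SW1783 medium), 30 (SW1783 low), 687 (SW1783 wortmannin), 18 (HT29 low) and 20 (interaction, low). With only the 6 libraries compared, HT29 high dose gave 301 DEGs and HT29 medium dose 2 of the 6 enzymes, TKT having passed (adjusted p = 0.00917). With all 18 libraries of the line, 0 of the 6 enzymes passed with wortmannin in HT29, IDH1 having an adjusted p of 0.401. The PGD interaction with wortmannin did not pass with TMM-derived size factors (adjusted p = 0.252), the low-count filter (0.0688) or edgeR (0.267).

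Deviations of same-numbered vehicle and treated libraries from their group means correlated at -0.47 to 0.36 in HT29 and -0.11 to 0.07 in SW1783. With different numbers they correlated at -0.50 to 0.53 and -0.08 to 0.09. With wortmannin in SW1783 the same-numbered correlations (0.030 to 0.067) all exceeded the others (-0.079 to 0.025). In HT29 these ranges overlapped (-0.049 to 0.143 and -0.171 to 0.142). With ACD the same-numbered ones in SW1783 were all negative. Whether the numbers pair samples was not stated. Same-numbered vehicles of the 2 batches were closer than others (chi-square per degree of freedom 1.46 to 1.64 against 2.04 to 17.7). With the replicate number as a block the wortmannin counts were 253 DEGs and 2 enzymes in SW1783, 215 DEGs and 0 enzymes in HT29 and 270 DEGs and 1 enzyme for the interaction. The calls lost were ME1 (adjusted p = 0.0657) and PGD (0.0806) in SW1783, IDH1 (0.0855) in HT29, and ME1 (0.111) and PGD (0.4) for the interaction.

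Leaving out 1 library at a time gave 3188 to 3353, 463 to 511, 5 to 12 and 301 to 382 DEGs in SW1783, 362 to 569, 88 to 124, 25 to 48 and 273 to 385 in HT29, and 2528 to 2810, 419 to 527, 26 to 35 and 398 to 495 for the interactions. The number of enzymes that passed was 5, 1, 0 and 2 to 4 in SW1783, 3 to 4, 1 to 2, 0 and 0 to 2 in HT29, and 3 to 4, 2 to 3, 0 and 1 to 3 for the interactions. Counts limit ME1 in SW1783 most, at 207 to 381 normalized counts over its wortmannin, vehicle and high dose libraries.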
